A study of Mus musculus with 12 samples.

Results

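All 12 of the 12 arrays of a mouse dorsal skin series were compared by age: the 6 arrays whose titles end in 14 weeks against the 6 whose titles end in 10 weeks. The arrays fall into 6 groups by title, and each group has 1 array at each age, so the group served as a block and the comparison rests on 6 within-group differences. All mice were of the C57Bl/6 strain. WT skin came from mice with no engineered allele, IL-6KO skin from mice without IL-6, IL-17C+ skin from mice with a transgene for the cytokine IL-17C, and IL-17C+KO skin from mice with the same transgene and without IL-6. From mice with the transgene, involved (lesional) dorsal skin and uninvolved dorsal skin were pooled apart, which splits IL-17C+ and IL-17C+KO each into an involved and an uninvolved group. Each array was hybridised with RNA of 1 pool of male and female skin. The 10-week pools of WT and IL-6KO held skin of 4 mice, and each other pool held skin of 5 mice. The pool sizes add up to 58, which is the number of mice only if no mouse gave skin to more than 1 pool. The IL-6KO arrays carry the label involved although their titles name no site, and they were treated here as non-lesional. The labels used here state neither what drives the transgene nor whether an involved and an uninvolved pool share animals.

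Mouse back skin is not constant over this stretch of adult life. Its hair follicles pass in waves through growth (anagen), regression and rest, and the dermal fat layer thickens and thins with them. Skin also has a circadian clock, so that clock genes differ with the hour of collection, and lesions of a chronic inflammatory model can spread or regress with age. IL-17C is made by epithelial cells and drives antimicrobial and IL-1 family genes in keratinocytes, while IL-6 acts through STAT3.

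Values are log2 of the deposited array intensities, and a difference is always 14 minus 10 weeks. The skin identity was plain on every array, with Krt10 (suprabasal keratin) between 12.06 and 12.62, Krt14 (basal keratin) between 9.49 and 11.31 and the dermal collagen gene Col1a1 between 10.59 and 13.34. Il6, the targeted gene, was near the array median or below it on most arrays and does not separate the labels: it was 2.68 and 2.79 in IL-6KO at 10 and 14 weeks, 2.92 and 2.88 in WT, and 4.93 and 5.00 in uninvolved IL-17C+KO skin. The row does not show which part of the gene it reads, so it checks the deletion only in this limited way. Krt16 (a keratin of hyperproliferative epidermis) was 10.67 and 10.74 in involved IL-17C+ and 10.25 and 10.12 in uninvolved IL-17C+KO skin, but 6.37 and 8.78 in the pools labelled involved IL-17C+KO. The lesion labels of the IL-17C+KO pools therefore go against this marker. IL-6KO skin had Il1f6 (IL-36 alpha) at 7.01 and 8.58, against 4.52 and 4.11 in WT and 8.14 and 8.42 in involved IL-17C+ skin, and Krt16 at 8.29 at 14 weeks against 4.07 in WT. Treating IL-6KO as non-lesional therefore goes against these markers too. Nor does the Il17c row separate arrays with and without the transgene. At 10 and 14 weeks the IL-6KO arrays had 6.30 and 6.17, WT had 4.67 and 4.96, uninvolved IL-17C+ skin had 4.74 and 4.16, and involved IL-17C+ skin 5.81 and 6.63. With the transgene and no IL-6, it was 5.32 and 5.62 for involved and 6.16 and 6.25 for uninvolved skin, so IL-6KO lay above uninvolved IL-17C+ skin. Every group name below is the name on the label, and the tests by lesion, transgene and IL-6 rest on it.

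The 10-week WT and 10-week IL-6KO arrays stand apart from the other 10. The mean of 1394 olfactory and vomeronasal receptor genes lay below the median of all rows on every array. It was 2.94 and 2.78 on the 10-week WT and IL-6KO arrays and between 2.58 and 2.68 on the others. The median of all rows was also highest there, at 4.23 and 4.19 against 3.97 to 4.08 elsewhere. The female transcript Xist was 4.15 in WT at 10 weeks and 9.22 at 14 weeks, and on the other 10 arrays between 5.55 and 9.76. The mean of 3 Y-linked genes did not mirror this in WT. It was 5.34 at 10 and 5.15 at 14 weeks there, and between 5.31 and 6.67 on the other 10 arrays. The pools may therefore differ in their shares of the sexes, which was not tested. Differences between pools can be of animals, sex, site or hybridisation, and these cannot be told apart from age within a group of 1 pool per age. In bulk skin, fewer cells of a type and less RNA per cell cannot be told apart either.

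No gene passed adjusted p 0.05 for age over the 6 groups in limma with Benjamini-Hochberg adjustment (0 of 22180 genes, 0%). In limma, an unadjusted p under 0.05 was reached by 943 genes higher at 14 weeks (4.25%) and 913 lower (4.12%). In all 6 groups, 502 genes were higher (2.26%) and 471 lower (2.12%). The median standard error was 0.14, and the median 95% interval reached 0.31 to either side. The genes named in the next paragraphs are those of smallest p and are given as not passing. For a gene whose 6 differences share a sign, the exact two-sided sign-flip permutation test gives 0.03125, the smallest p that 6 pairs allow.

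The smallest p belonged to 2 small RNA genes, named here after their values were seen. Mir505, the gene of a microRNA, ranged from 2.92 over a median of 4.08 to 5.11 at 10 weeks and from 3.65 over 5.30 to 5.93 at 14 weeks. The ages overlapped, yet each group was higher at 14 weeks, by 1.52 in WT, 1.46 in IL-6KO, 0.73 in involved IL-17C+, 0.82 in uninvolved IL-17C+, 0.77 in involved IL-17C+KO and 0.91 in uninvolved IL-17C+KO skin. Its mean difference was 1.03 ± 0.15 (SE, 6 pairs), a fold of 2.05, with an adjusted p of 0.132 in limma. Its mature forms, from RefSeq on build GRCm38.p6, lie on the minus strand of the X chromosome at chrX:60394416-60394437 (3p arm) and chrX:60394451-60394473 (5p arm), and are shown because no other microRNA gene had a smaller p. The capitals mark the seed, bases 2 to 8 from the 5′ end, and the arms do not share it.
mmu-miR-505-3p: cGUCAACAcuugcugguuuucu
mmu-miR-505-5p: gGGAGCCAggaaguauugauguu
An array row read from labelled transcripts does not separate a microRNA's precursor from its mature arms.

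Snora75, a small nucleolar RNA gene, was between 5.66 and 7.94 at 10 weeks (median 6.79) and between 6.37 and 8.88 at 14 weeks (median 7.75). The mean difference was 1.06 ± 0.15 (SE), with an adjusted p of 0.132 in limma, and the group differences ran from 0.71 in WT to 1.55 in uninvolved IL-17C+ skin. Small nucleolar RNAs guide chemical modification of ribosomal and spliceosomal RNA, and many are cut from introns of host genes. Of 73 such genes with a row of their own, 53 had a higher mean at 14 weeks (72.6%, against 51.6% of all genes). At an unadjusted p under 0.05 there were 22 higher and 0 lower, and 10 were higher in all 6 groups. Of all genes, 4.25% were higher and 4.12% lower at that p, and 2.26% were higher in all 6 groups. The median of these genes was 0.20 in WT, -0.36 in IL-6KO, 0.18 in involved IL-17C+, 0.58 in uninvolved IL-17C+, 0.70 in involved IL-17C+KO and 0.20 in uninvolved IL-17C+KO skin, so IL-6KO went the other way. This group of genes was also chosen after values were seen.

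Among protein-coding genes Il1a had the smallest p. It encodes interleukin-1 alpha, an alarmin held in keratinocytes and released on damage. Its level was lowest in WT (4.29 at 10 and 4.61 at 14 weeks) and uninvolved IL-17C+ skin (4.34 and 4.77). It went from 5.03 to 6.74 in IL-6KO, from 6.31 to 7.44 in involved IL-17C+, from 4.86 to 6.47 in involved IL-17C+KO and from 6.36 to 7.14 in uninvolved IL-17C+KO skin. The 2 ages overlapped in level, but within each group the older pool was higher, by 0.32 to 1.71. The mean difference was 1.0 ± 0.19 (SE), a fold of 2.0 (95% interval 0.58 to 1.42 on the log2 scale), with an unadjusted p of 0.000197 and an adjusted p of 0.571 in limma. In the 4 transgenic groups alone it was 0.99.

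Pglyrp4, a peptidoglycan recognition protein of the epidermal barrier, was between 4.77 and 5.54 at 10 weeks and between 5.79 and 6.04 at 14 weeks, without overlap of the ages. Its mean difference was 0.70 ± 0.15 (SE), and its group differences ran from 0.41 in involved IL-17C+ to 1.27 in involved IL-17C+KO skin. Clk1, a kinase of splicing factors, had the narrowest set of differences among these genes, 0.42 to 0.74, around a mean of 0.62 ± 0.13 (SE). Hyal4 (0.65), Liph (0.75), a lipase of the hair follicle, Nabp1 (0.75) and Atad5 (0.62), both of DNA repair and replication, and the zinc finger genes Zfp975 (0.62), Zfp944 (0.70) and Zfp866 (0.68) were likewise higher in all 6 groups. In the transgenic groups alone the mean differences of these 10 genes ran from 0.44 for Zfp866 to 0.99 for Il1a. Their sign is no check, since genes higher in all 6 groups must have a positive mean there.

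On the lower side, Ccl5, a chemokine that draws T cells, was between 5.02 and 5.50 at 10 weeks and between 4.56 and 4.91 at 14 weeks. The ages did not overlap, and the mean difference was -0.56 ± 0.13 (SE, unadjusted p 0.00106, adjusted p 0.571 in limma). Krt13, a keratin of internal stratified epithelia, was 3.11 to 4.11 at 10 weeks and 2.74 to 2.98 at 14 weeks, below the array median, with a mean difference of -0.60. Defb20 (-0.63), a beta-defensin, Ssc5d (-0.65), a scavenger receptor protein, Lctl (-0.44), Mroh3 (-0.56) and Kcnj11 (-0.54), a potassium channel subunit, were also lower in 6 of 6 groups. Like Krt13, Defb20 was below the array median, on all 12 arrays. Its differences were -1.23 in WT and -0.75 in IL-6KO, and -0.70 to -0.26 in the transgenic groups. Urad (-0.75), Srsx (-1.37) and Aym1 (-0.91) were lower in 5 of 6. For Srsx the differences were -2.59 in WT and -2.96 in IL-6KO, the groups whose 10-week arrays stand apart, and the mean over the 4 transgenic groups was -0.67. Aym1 was -0.53 in the transgenic groups alone.

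**Figure D1:**
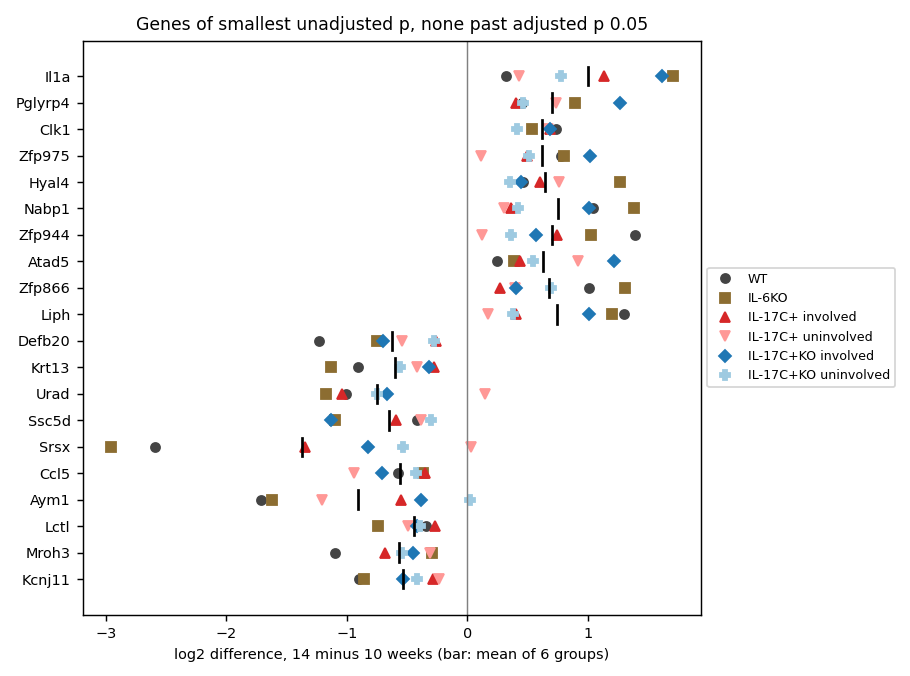
Log2 difference, 14 minus 10 weeks, of the 10 genes of smallest p in each direction (small RNAs and predicted loci left out), with 1 symbol per group and a bar at the mean of the 6 groups. The 10 upper genes lie right of 0 in all 6 groups, while Urad, Srsx and Aym1 each have 1 group at or right of 0, and WT and IL-6KO lie farthest left for Srsx and Aym1.

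Since each group has 1 array at each age, its own difference has no test, and a 2-fold difference (1 on the log2 scale) was used to describe it. The number of genes past it differed widely between groups. In WT there were 710 genes higher and 680 lower (3.2% and 3.07%), and in IL-6KO 771 and 437 (3.48% and 1.97%). It was 93 and 120 in involved IL-17C+ (0.419% and 0.541%), 204 and 341 in uninvolved IL-17C+ (0.92% and 1.54%), 351 and 234 in involved IL-17C+KO (1.58% and 1.06%), and 121 and 57 in uninvolved IL-17C+KO skin (0.546% and 0.257%). WT and IL-6KO, with the arrays that stand apart, had the most genes past 2-fold and uninvolved IL-17C+KO skin the fewest. The list counts past 2-fold given below are to be read against these shares of all genes. Among the 13134 genes above the array median on at least 6 arrays, the lower counts shrank to 233 in WT (1.77%) and 226 in IL-6KO (1.72%), while the higher counts were 676 (5.15%) and 737 (5.61%). The part of the 10-week signal in these counts was not tested.

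**Figure D2:**
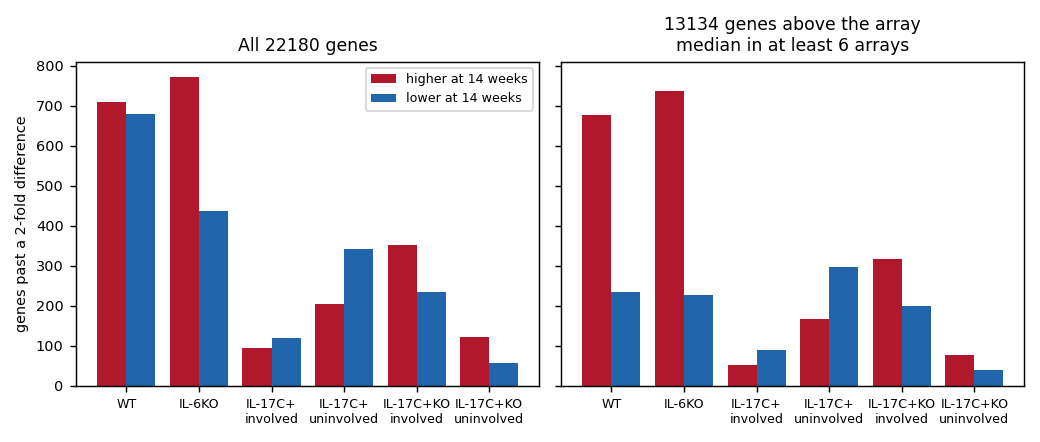
Number of genes past a 2-fold difference in each group, higher (red) or lower (blue) at 14 weeks, with 1 array per age. The left panel counts all 22180 genes and the right panel the 13134 genes above the array median on at least 6 arrays, where the bars of genes lower in WT drop from 680 to 233.

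Across the 13134 brighter genes, the differences of WT and IL-6KO went together most (r = 0.46), followed by IL-6KO with involved IL-17C+KO (0.38), and those of IL-6KO and uninvolved IL-17C+ ran against each other (-0.20). These correlations are across genes, which are not independent replicates, and every array shares 1 normalization. Of the genes past 2-fold in the same direction, WT and IL-6KO shared 161 (17.7% of those of WT and 16.7% of those of IL-6KO). IL-6KO and involved IL-17C+KO shared 134, which is 13.9% of those past 2-fold in IL-6KO and 26.0% of those in involved IL-17C+KO skin. The overlap of uninvolved IL-17C+ and involved IL-17C+KO was 92 (19.9% and 17.9%), and that of involved IL-17C+ and uninvolved IL-17C+ was 1 (0.714% and 0.216%). Of the 13134 genes, the shares past 2-fold higher and lower were 5.15% and 1.77% in WT and 5.61% and 1.72% in IL-6KO. They were 0.396% and 0.67% in involved IL-17C+, 1.26% and 2.26% in uninvolved IL-17C+ and 2.41% and 1.52% in involved IL-17C+KO skin.

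The hair shaft keratins and their partners, made in growing follicles, differed as a block within a group, but not the same way in all groups. Of 30 genes measured, 22 were past 2-fold higher in uninvolved IL-17C+ and 14 in involved IL-17C+KO skin, and 12 were past 2-fold lower in involved IL-17C+ skin. For all genes the shares were 0.92%, 1.58% and 0.541%, in the same order. The list medians were 1.47, 0.92 and -0.80 in these 3 groups, 0.38 in WT, 0.27 in IL-6KO and -0.02 in uninvolved IL-17C+KO skin. The keratin-associated proteins, which cross-link the shaft keratins, gave 38 of 48 past 2-fold higher in uninvolved IL-17C+, 23 higher in involved IL-17C+KO and 14 lower in involved IL-17C+ skin. The medians of all genes lay between -0.02 and 0.03 in every group.

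Tchh (trichohyalin, of the inner root sheath) was 4.97 in involved IL-17C+KO skin at 10 weeks and 9.64 at 14 weeks, a difference of 4.67. On the other 10 arrays it was between 8.81 and 12.21, so the 10-week involved IL-17C+KO pool was the low one. The inner root sheath keratins Krt27, Krt71 and Krt25 were higher by 4.24, 4.09 and 3.92 in the same group. Krtap4-8 was higher by 3.91 there, by 2.84 in uninvolved IL-17C+ skin and by 2.46 in IL-6KO, and differed by -0.27 in uninvolved IL-17C+KO skin. Over the 6 groups Krtap4-8 had a mean difference of 1.71 ± 0.44 (SE, unadjusted p 0.00205, adjusted p 0.571 in limma). At an unadjusted p under 0.05 the shaft keratin list had 4 of 30 genes higher and 0 lower, and the keratin-associated list 10 of 48 higher and 1 lower. Of all genes, 4.25% were higher and 4.12% lower at that p. Fgf18, which holds follicles at rest, was lower in all 6 groups (mean -0.57 ± 0.15 SE, unadjusted p 0.00249, adjusted p 0.571 in limma), from -0.14 in WT to -1.13 in involved IL-17C+KO skin. Fgf5, which ends growth, had a mean difference of 0.48 and was higher in 5 of 6 groups. Of the pigment genes, Tyrp1 (0.73 ± 0.19 SE) and Dct (0.60 ± 0.20 SE), both enzymes of melanin synthesis, were higher in 5 of 6 groups, with involved IL-17C+ skin the exception for both (-0.12 and -0.22).

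**Figure D3:**
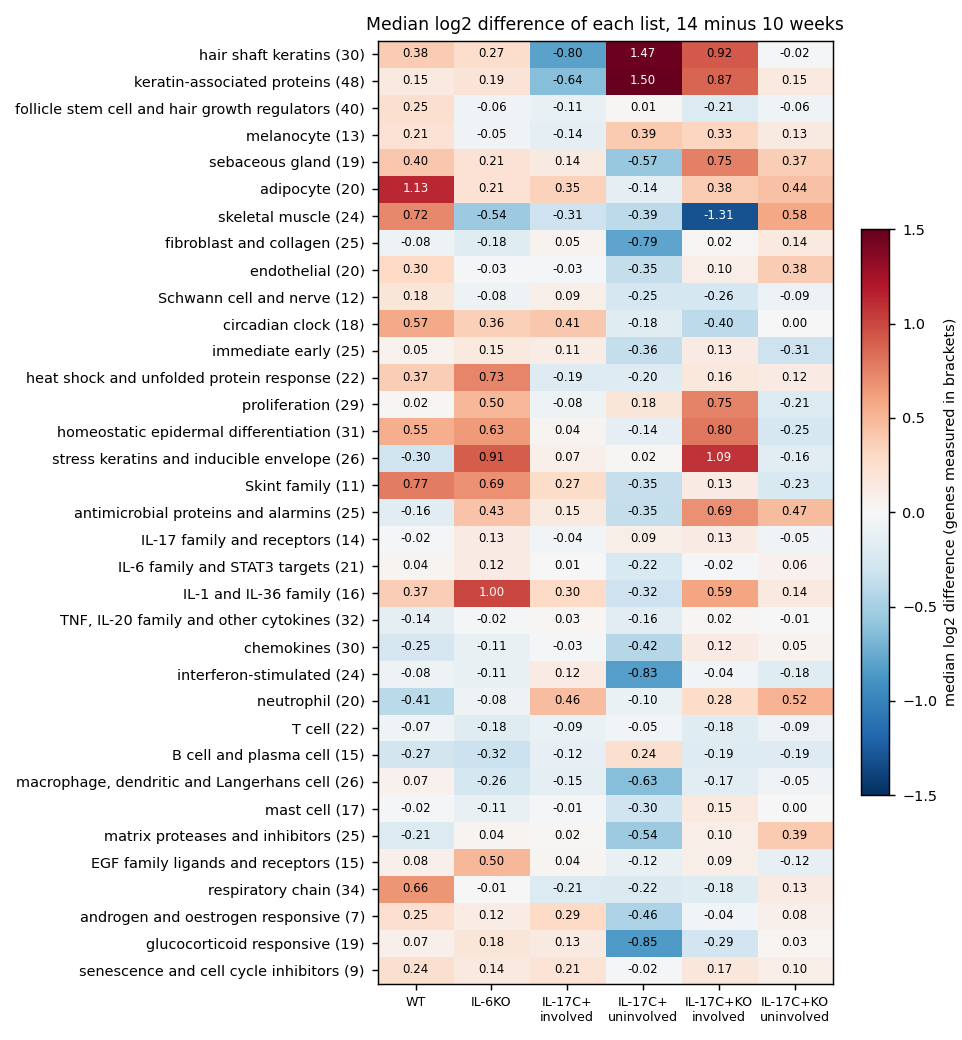
Median log2 difference, 14 minus 10 weeks, of the lists with at least 5 genes measured (number in brackets) in each group, red for higher and blue for lower at 14 weeks, with 1 array per age and no test. The hair lists stand at 1.47 and 1.5 in uninvolved IL-17C+ skin against -0.80 and -0.64 in involved IL-17C+ skin, and the skeletal muscle list at -1.31 in involved IL-17C+KO skin.

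Genes of fat storage were higher at 14 weeks in most groups. Of 20 adipocyte genes, 18 had a higher mean, 8 were higher and 0 lower at an unadjusted p under 0.05, and 0 passed after adjustment in limma. Of all genes, 51.6% had a higher mean, and 4.25% were higher and 4.12% lower at that p. The list median was 1.13 in WT, where 13 of 20 were past 2-fold higher, against 3.2% of all genes. It was 0.21 in IL-6KO, 0.35 in involved IL-17C+, -0.14 in uninvolved IL-17C+, 0.38 in involved IL-17C+KO and 0.44 in uninvolved IL-17C+KO skin. Retn (resistin, an adipocyte hormone) was 6.15 to 7.74 at 10 weeks and 7.27 to 8.82 at 14 weeks, with a mean difference of 0.91 ± 0.21 (SE, unadjusted p 0.00102, adjusted p 0.571 in limma). It was higher in 5 groups, by 0.76 to 1.59, and differed by -0.32 in uninvolved IL-17C+ skin. Thrsp, a regulator of lipogenesis, had a mean difference of 0.81 ± 0.21 (SE). Acaca (acetyl-CoA carboxylase, 0.53 ± 0.16 SE) and Plin1 (a lipid droplet coat protein, 0.42 ± 0.17 SE) were the members higher in all 6 groups, and were named after their values were seen, as were Fasn (0.49, fatty acid synthase) and Adipoq (0.42, adiponectin), each higher in 5. In the sebaceous list 15 of 19 had a higher mean, with a median of 0.75 in involved IL-17C+KO and -0.57 in uninvolved IL-17C+ skin.

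Skeletal muscle genes, from the panniculus carnosus under the skin, differed between pools with no common direction. All 24 were higher in WT (median 0.72) and 22 in uninvolved IL-17C+KO skin (0.58), while 24 were lower in involved IL-17C+KO skin (median -1.31, with 21 past 2-fold). The medians were -0.54 in IL-6KO, -0.31 in involved IL-17C+ and -0.39 in uninvolved IL-17C+ skin. Myh4, a fast myosin heavy chain, was 10.68 in IL-6KO at 10 weeks and 4.79 at 14 weeks, and between 9.23 and 11.98 on the other 10 arrays. The other fast-muscle genes of that pool did not go down with it to this extent, for Acta1 differed by -0.46 and Myh2 by 0.62 there. How much muscle each sample took in was not tested.

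Of the IL-1 and IL-36 family, 16 genes were measured, 6 of them were higher and 0 lower at an unadjusted p under 0.05, and 0 passed after adjustment in limma. Of all genes, 4.25% were higher and 4.12% lower at that p. The list median was 1.0 in IL-6KO (8 past 2-fold), 0.59 in involved IL-17C+KO (7), 0.37 in WT (0), 0.30 in involved IL-17C+ (1), 0.14 in uninvolved IL-17C+KO (0) and -0.32 in uninvolved IL-17C+ skin (0 higher and 3 lower). Il1f8, the array's symbol for IL-36 beta, was 4.17 in involved IL-17C+KO skin at 10 weeks and 8.17 at 14 weeks, a difference of 4.01. It was 6.31 and 8.10 in IL-6KO, 7.15 and 7.6 in involved IL-17C+ and 7.02 and 7.54 in uninvolved IL-17C+KO skin. WT (3.19 and 3.91) and uninvolved IL-17C+ skin (4.19 and 3.69) stayed below all of these at 14 weeks. Il1f6 (IL-36 alpha), Il1f9 (IL-36 gamma) and their antagonist Il1f5, named after their values were seen, were higher by 2.88, 2.16 and 1.61 in involved IL-17C+KO and by 1.56, 1.31 and 1.48 in IL-6KO. The IL-1 receptor antagonist Il1rn was higher in 5 of 6 groups, with a mean difference of 0.51 ± 0.16 (SE).

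Stress keratins with inducible envelope proteins had their highest medians in IL-6KO and involved IL-17C+KO skin. The stress list had 11 of 26 past 2-fold higher in IL-6KO (median 0.91) and 13 in involved IL-17C+KO skin (1.09), but 1 higher and 5 lower in WT (-0.30). Krt16, named after its values were seen, was higher by 1.64 in IL-6KO and 2.41 in involved IL-17C+KO skin, differed by -1.87 in WT, and differed by 0.07 in involved IL-17C+ skin, where it was already 10.67 at 10 weeks. Stfa3, a protease inhibitor of the stefin family, was 5.76 in involved IL-17C+KO skin at 10 weeks and 10.97 at 14 weeks. It was 12.02 and 12.07 in involved IL-17C+ and 11.62 and 11.92 in uninvolved IL-17C+KO skin, so the 14-week involved IL-17C+KO pool came near them. At an unadjusted p under 0.05, 4.25% of all genes were higher and 4.12% lower. Of the 25 genes of the antimicrobial list, 6 were higher and 0 lower at that p, and 0 passed after adjustment in limma. Its median was 0.69 in involved IL-17C+KO (11 past 2-fold higher), 0.47 in uninvolved IL-17C+KO (5), 0.43 in IL-6KO (9), 0.15 in involved IL-17C+ (3), -0.16 in WT (0) and -0.35 in uninvolved IL-17C+ skin (1). In uninvolved IL-17C+KO skin 22 of the 25 were higher, against 18 in IL-6KO. Defb3, a beta-defensin, was higher by 4.01 in involved IL-17C+KO and 3.35 in IL-6KO, and S100a8, a calprotectin subunit, by 3.18 and 1.85. Over the 6 groups S100a8 had a mean difference of 0.70 ± 0.42 (SE, unadjusted p 0.116). The neutrophil list, whose cells also hold S100a8, had medians of -0.08 in IL-6KO and 0.28 in involved IL-17C+KO skin. Its part in the antimicrobial values was not tested.

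Il17c itself had a mean difference of 0.13 ± 0.17 (SE) and Il6 of 0.06 ± 0.24 (SE), with adjusted p of 0.797 and 0.938 in limma. Il17c was higher by 0.82 in involved IL-17C+ and differed by -0.59 in uninvolved IL-17C+ skin, and by -0.13 to 0.30 in the other 4 groups. Il6 was higher by 1.5 in involved IL-17C+KO skin, a group that lacks the gene by its label. The IL-17 family list had 0 of 14 genes at an unadjusted p under 0.05, and the list of IL-6 family and STAT3 targets 0 of 21.

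**Figure D4:**
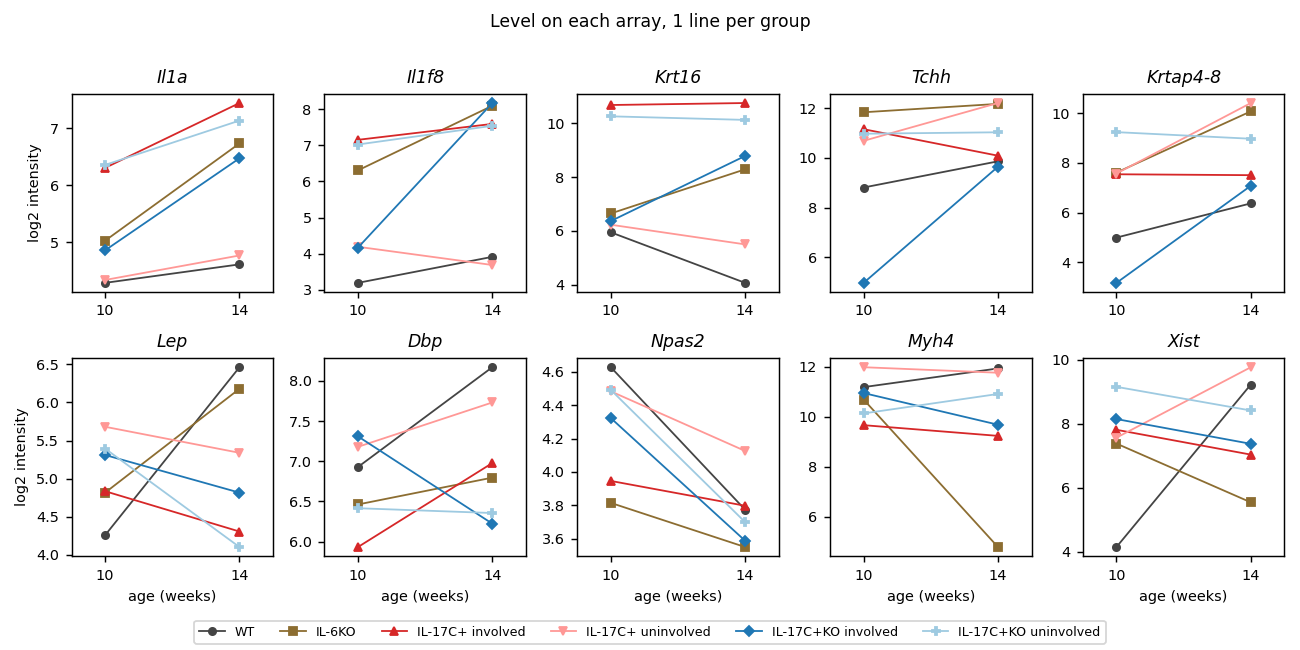
Log2 intensity of 10 genes at 10 and 14 weeks, with 1 line per group and 1 array per point. Il1a has 6 lines up and Npas2 6 lines down, Lep is up in WT and IL-6KO only, and single pools are set apart for Tchh (4.97, involved IL-17C+KO, 10 weeks), Myh4 (4.79, IL-6KO, 14 weeks) and Xist (4.15, WT, 10 weeks).

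The T cell, macrophage, interferon, and B cell and plasma cell lists had mostly lower means at 14 weeks, with no gene passing. The neutrophil list did not share this. Of 22 T cell genes 3 had a higher mean, of 26 macrophage, dendritic and Langerhans cell genes 5 did, and of 24 interferon-stimulated genes 4 did. The share was 51.6% for all genes and 38.5% for the 1394 olfactory and vomeronasal receptor genes. Only 8 of the 22 T cell and 3 of the 15 B cell and plasma cell genes lay above the array median on at least 6 arrays. For the interferon list it was 16 of 24 and for the macrophage list 26 of 26. The part of background in these means was not tested. At an unadjusted p under 0.05 the macrophage list had 5 lower and 0 higher, the interferon list 3 lower and 0 higher and the T cell list 1 lower and 0 higher, against 4.12% of all genes lower, so that the T cell count is near that of all genes. Of 20 neutrophil genes 12 had a higher mean (list median 0.11), and 16 were higher in involved IL-17C+ and in uninvolved IL-17C+KO skin, while of 17 mast cell genes 7 had a higher mean (list median -0.03). Il2rb, a receptor chain of T and NK cells, was lower in 6 of 6 groups (mean -0.39 ± 0.13 SE), as was the B cell receptor gene Cd79a (-0.31 ± 0.12 SE). Both lay near or below the array medians. Jchain, of the same B cell and plasma cell list as Cd79a, joins antibody chains and was higher in 5 of 6 groups (0.42 ± 0.16 SE, unadjusted p 0.0225 in limma). In that list 5 of 15 had a higher mean (list median -0.09), and 1 was higher and 2 lower at an unadjusted p under 0.05. Cx3cr1, a receptor of macrophages and Langerhans cell precursors, had a mean difference of -0.60 ± 0.20 (SE) and was lower in 5 groups. In uninvolved IL-17C+ skin the interferon list had a median of -0.83 with 7 of 24 past 2-fold lower, the glucocorticoid-responsive list -0.85 with 8 of 19, and the fibroblast and collagen list -0.79 with 25 of 25 at or below 0 and 5 past 2-fold. Irf7, an interferon regulatory factor, differed by -1.63 and Oasl2, an interferon-induced gene, by -1.82 in that group. Tnfaip6, a hyaluronan-binding protein of inflamed tissue, went down most there among the genes eligible to be named, by a difference of -2.97.

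Other lists were set apart in 1 or 2 groups. Of 29 proliferation genes, 29 were higher in involved IL-17C+KO skin (median 0.75, with 7 past 2-fold) and 25 in IL-6KO (0.50). Mki67, a marker of cycling cells, was higher by 1.51 and 1.33 in these groups and differed by -0.16 to 0.48 in the other 4. All 34 respiratory chain genes were higher in WT (median 0.66), against medians of -0.22 to 0.13 in the other groups. Respiratory chain genes are abundant in muscle, whose list was also higher in that group, and the part of muscle was not tested. The heat shock list had a median of 0.73 in IL-6KO with 7 of 22 past 2-fold, and Hspa1b (Hsp70) was higher there by 1.08. Among barrier genes, Casp14, a protease of cornification, was higher by 2.99 in involved IL-17C+KO skin, and Krt77, a keratin of the suprabasal epidermis, differed by -2.60 in uninvolved IL-17C+KO skin, from 9.68 to 7.08. Vegfa, the vascular growth factor, was higher in 5 of 6 groups with a mean difference of 0.59 ± 0.17 (SE, unadjusted p 0.00484, adjusted p 0.571 in limma).

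The circadian clock list gave medians of 0.57 in WT, 0.36 in IL-6KO and 0.41 in involved IL-17C+ skin, and of -0.18 in uninvolved IL-17C+, -0.40 in involved IL-17C+KO and 0.00 in uninvolved IL-17C+KO skin. Npas2, a partner of BMAL1 that activates clock genes, was lower in 6 of 6 groups, by -0.15 to -0.85. It lay between 3.81 and 4.63 at 10 weeks (median 4.40) and between 3.55 and 4.13 at 14 weeks (median 3.74), with overlap. Its mean difference was -0.53 ± 0.14 (SE, unadjusted p 0.00218, adjusted p 0.571 in limma), and it was the member of 18 with an unadjusted p under 0.05. The clock output genes given next did not keep the same direction over the groups. Dbp, named after its values were seen, was higher by 1.24 in WT and 1.04 in involved IL-17C+ skin and differed by -1.09 in involved IL-17C+KO skin. Tef (1.20, 0.67 and -0.78), Ciart (0.82, 0.78 and -0.70), Per3 (1.39, 0.95 and -0.55) and Nr1d1 (1.33, 0.59 and -1.08) had the same order over these 3 groups. Arntl, the gene of BMAL1 and also named after its values were seen, had the opposite signs (-0.79, -0.07 and 0.50). In IL-6KO, however, both Arntl (0.38) and Dbp (0.33) were higher. The labels used here do not state the hour at which each pool was collected.

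The promoters of some of these genes hold letters that clock factors are known to bind. The E-box CACGTG, bound by CLOCK, NPAS2 and BMAL1, and the D-box TTATGTAA, bound by DBP, TEF and HLF, were searched on both strands in the 300 bases from 250 before to 50 after each gene's start (RefSeq, GRCm38.p6). Of 32851 promoters, 7.15% hold the E-box and 0.938% the D-box, and of 17 clock list genes with a promoter 5 hold the E-box and 1 the D-box. The percentages are per promoter, but a clock list gene counted if any of its listed promoters held the match, so these cannot be compared directly. The windows below, written 5′ to 3′ on the strand of the gene, show the matches in capitals for Ciart, Tef, Bhlhe41 and Per3, the members described here that have one. For Npas2, Dbp, Nr1d1 and Arntl no match lies in this window. They lie at chr3:95882242-95882369 (minus strand) for Ciart, chr15:81802521-81802576 (plus) for Tef, chr6:145865543-145865598 (minus) for Bhlhe41 and chr4:151044791-151044895 (minus) for Per3.
Ciart: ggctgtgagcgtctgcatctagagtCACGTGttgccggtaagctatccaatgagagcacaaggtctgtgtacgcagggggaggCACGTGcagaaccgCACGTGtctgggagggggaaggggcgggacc
Tef: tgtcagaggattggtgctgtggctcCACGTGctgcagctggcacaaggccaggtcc
Bhlhe41: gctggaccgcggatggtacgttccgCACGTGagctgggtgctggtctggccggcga
Per3: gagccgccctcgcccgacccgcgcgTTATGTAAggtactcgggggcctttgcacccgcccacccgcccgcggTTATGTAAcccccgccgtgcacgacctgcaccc
A match is a description of the letters, and binding was not measured. Bhlhe41, a repressor of the clock, was higher by 1.16 in WT, with differences of -0.16 in involved IL-17C+ and -0.38 in involved IL-17C+KO skin.

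Whether the age difference itself depended on lesion, transgene or IL-6 was tested with an interaction term in a fit of its own each. For lesion, 0 of 22180 genes passed in limma with Benjamini-Hochberg adjustment (0%), and 545 (2.46%) had an unadjusted p under 0.05. In limma 0 passed without IL-6KO either (583 at an unadjusted p under 0.05), nor in the transgenic groups alone (788), an alternative added after seeing the data. The smallest p were those of Calm5 (1.43 ± 0.30 SE), a calcium-binding protein of differentiating epidermis, Lce3f (1.74 ± 0.38 SE), a late envelope protein, and Hdc (1.44 ± 0.35 SE), the enzyme that makes histamine, with a higher difference in involved skin. Of those with a lower one, Myh2 (-1.75), Xirp2 (-1.92) and Ankrd2 (-1.87) are muscle genes. For loss of IL-6, again 0 genes passed in limma (0%) and 655 (2.95%) had an unadjusted p under 0.05. Prg4 (1.96 ± 0.35 SE), the joint lubricant lubricin, Adgrg7 (2.63 ± 0.50 SE) and Timp1 (1.41 ± 0.27 SE), an inhibitor of matrix proteases, led the genes with a higher difference without IL-6, and Fcgbp (-1.58), Adh6b (-1.13) and Lax1 (-1.03) those with a lower one. Adgrg7 was higher by 3.49 in IL-6KO, 3.24 in involved IL-17C+KO and 1.18 in uninvolved IL-17C+KO skin, and differed by -0.36 to 0.35 in the 3 groups with IL-6. Without the uninvolved IL-17C+KO pair 3 genes passed in limma, Adgrg7, Csta3 (a stefin-type protease inhibitor) and Defb3, the last 2 named after their values were seen.

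For the transgene, 64 of 22180 genes passed in limma (0.289%), 61 with a higher difference in transgenic skin (0.275%) and 3 with a lower one (0.0135%). Of the 17824 rows that name no gene or several, 553 passed the same test (3.1%). Of all genes, 4617 (20.8%) had an unadjusted p under 0.05. All 61 were lower at 14 weeks in both WT (median -2.20) and IL-6KO (median -1.94), while their medians in the transgenic groups lay between -0.35 and 0.07. In 59 of the 61 the 2 highest of the 12 arrays were WT and IL-6KO at 10 weeks, the arrays that stand apart in their receptor genes. By name the 64 were 15 olfactory or vomeronasal receptors, 6 microRNAs, 23 predicted or other loci and 20 named genes, and 21 of the 61 lay above the array median on at least 6 arrays.

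Btbd35f17, a member of a multicopy BTB domain family of the X chromosome, was 4.69 in WT and 4.77 in IL-6KO at 10 weeks, and between 2.13 and 2.69 on the other 10 arrays. Its age by transgene difference was 2.48 ± 0.20 (SE, adjusted p 0.001 in limma). Speer4b, of a multicopy family expressed in testis, was 5.40 and 5.25 on the same 2 arrays and between 2.56 and 3.13 elsewhere (2.39 ± 0.24 SE, adjusted p 0.00309 in limma). Btbd35f1 was 9.47 and 9.39 there and between 6.26 and 7.31 elsewhere (2.67 ± 0.27 SE). These families have near-identical copies, which the probes may not tell apart. Srsy, Sly and Srsx, also multicopy genes, gave differences of -3.92, -3.55 and -2.59 in WT and -4.23, -1.75 and -2.96 in IL-6KO. With the mean of the receptor genes as a covariate, an alternative added after seeing the data, 0 of the 64 passed in limma and all 64 kept their sign (1234 genes had an unadjusted p under 0.05). The differences stayed large for Btbd35f17 (2.62 ± 0.49 SE), Speer4b (2.74 ± 0.59 SE) and Btbd35f1 (2.22 ± 0.69 SE), with wider errors. Among the 13134 brighter genes 4 passed, Btbd35f1, Vmn1r127, 9530057J20Rik and BC061237, the last 3 named after their values were seen. With 1 group left out, 7 genes passed without WT (6 of them among the 64), 57 without IL-6KO (29), 43 without involved IL-17C+ (33), 24 without uninvolved IL-17C+ (24), 31 without involved IL-17C+KO (31) and 23 without uninvolved IL-17C+KO skin (20). The part of the 2 arrays' background in the 61 was not tested further.

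**Figure D5:**
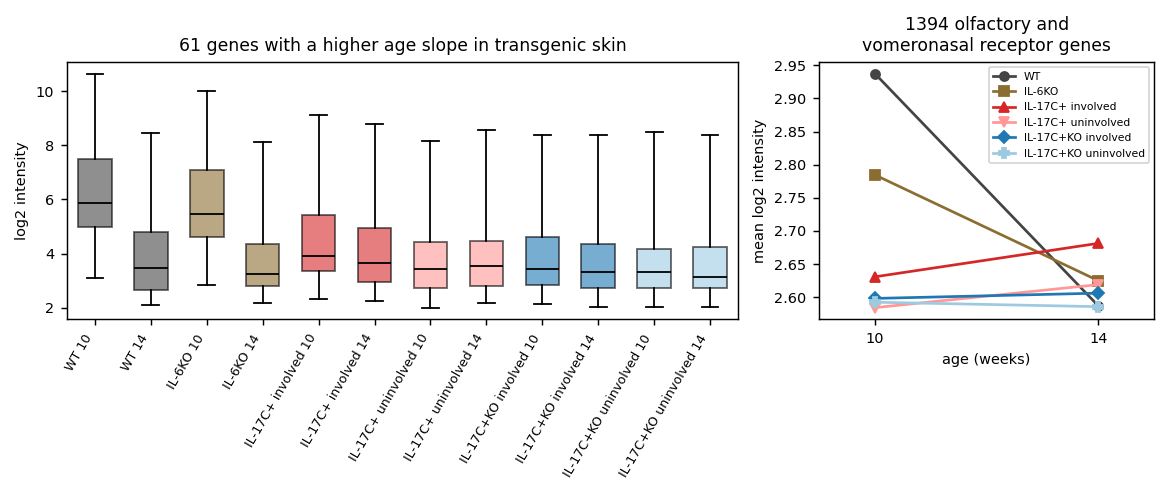
Left, log2 intensity of the 61 genes with a higher age difference in transgenic skin on each of the 12 arrays (box, quartiles; line, median; whiskers, lowest and highest). Right, mean log2 intensity of 1394 olfactory and vomeronasal receptor genes at each age, 1 line per group. Both are highest on the WT and IL-6KO arrays of 10 weeks, where the receptor means are 2.94 and 2.78.

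The 3 genes with a lower age difference in transgenic skin were Lep, Nanp and Micu2. Lep, which encodes the adipocyte hormone leptin, was 4.26 in WT at 10 weeks and 6.46 at 14 weeks, and 4.82 and 6.18 in IL-6KO. It was lower at 14 weeks in each transgenic group, going from 4.83 to 4.31 in involved IL-17C+, from 5.68 to 5.34 in uninvolved IL-17C+, from 5.31 to 4.82 in involved IL-17C+KO and from 5.39 to 4.10 in uninvolved IL-17C+KO skin. The 2 sets of differences, 1.36 to 2.21 and -1.29 to -0.34, did not overlap, and the difference between them was -2.45 ± 0.34 (SE, adjusted p 0.0187 in limma). Unlike the 61, Lep was not highest on the 10-week WT and IL-6KO arrays, and it lay above the array median on all 12 arrays. Those 2 arrays instead held its lowest values of that age, and also the lowest of Nanp and Micu2. Micu2 was 6.81 and 6.57 there, against 7.03 to 7.85 in the transgenic groups at 10 weeks. This is the same pair of arrays as for the 61, with the opposite direction. The part of these 2 arrays in the differences of the 3 genes was not tested beyond the receptor covariate given below. Of the 20 adipocyte genes Lep alone passed this test. The list's median age by transgene difference was -0.45, and 5 of the 20 had an unadjusted p under 0.05, against 20.8% of all genes. Acaca was higher by 1.07 in WT and 0.92 in IL-6KO and by 0.07 to 0.54 in the transgenic groups (-0.70 ± 0.23 SE, unadjusted p 0.0127, adjusted p 0.154 in limma). Retn was higher in 3 of the 4 transgenic groups and Plin1 in all 4. Nanp, a phosphatase of sialic acid synthesis (-2.11 ± 0.29 SE, adjusted p 0.0201), and Micu2, a regulator of the mitochondrial calcium channel (-1.36 ± 0.21 SE, adjusted p 0.033), passed in the same limma fit. Micu2 was higher by 0.93 in both WT and IL-6KO and differed by -0.50 to -0.31 in the transgenic groups. None of the 3 passed in limma with the receptor covariate, where the differences were -1.67 ± 0.83 (SE) for Lep, -1.25 ± 0.69 (SE) for Nanp and -1.31 ± 0.55 (SE) for Micu2. Lep and Micu2 did not pass with only the brighter genes tested, and Nanp, above the array median on 2 arrays, is not among those.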

How the data were processed

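RNA of 12 pools of dorsal skin was measured on 12 expression arrays, 1 per pool. The authors deposited 1 table of intensities, made by RMA in Affymetrix Expression Console per the submitters' processing notes, with 41345 rows on a linear scale (2.50 to 18385); no build or version is named in the labels or notes used here. Log2 was taken. The 23521 rows naming 1 gene gave 22180 genes (the brightest row where a gene had several); 17824 rows naming none or several were tested apart, and there 1 passed for age. Of the gene identifiers 21994 were found in the RefSeq table, all with the same symbol.

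The age term of a model of group plus age was fitted with limma 3.58.1 under R 4.3.3 (lmFit, eBayes with trend), with 5 residual and 7.65 prior degrees of freedom (4 residual for each interaction), and Benjamini-Hochberg adjustment at 0.05. P-values measure the spread between pools only, and the number of arrays limits the precision. Scripts were tested on simulated data. Samples were grouped by their labels. The same group pairs the ages, as the label of 1 genotype and site, not as the same mice. Named are Il6, Il17c, Xist, the 10 genes of smallest p in each direction, 3 a direction for each interaction, the 5 largest differences a direction in each group and 2 or 3 members of each list, without predicted loci, small RNAs and receptor genes; exceptions are stated. Krt25, Acta1, Il1rn, Tef, Ciart, Nr1d1 and Bhlhe41 were also named after their values were seen. The members, the 38 gene lists and the tests were chosen with earlier results of these data known. Alternatives were the filter, normalization, trend, covariates, block and left-out groups.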

Additional observations from a re-analysis of the deposited data

Results flagged for a closer look

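In 6 of 184 named genes 1 of the 6 within-group differences lay far from the other 5. Most of these genes were named from the same values, so the count cannot be set against chance. Hamp, Myh4 and Krtap5-4 were named for a large difference in the very group that stands apart. Hamp, which encodes hepcidin, was 2.18 in WT and at most 0.05 elsewhere. Myh4 was -5.89 in IL-6KO. Krtap5-4, a keratin-associated protein, was 2.87 in IL-17C+ uninvolved skin and below 0 in the other 5 groups. Csf2, the growth factor GM-CSF, was -1.85 in WT. In IL-17C+ uninvolved skin Cxcl13, a chemokine for B cells, was -1.98 and Mdm2, a regulator of p53, was -0.33, while both were positive in the other 5 groups.

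The age difference itself differed between transgenic and other skin, by an interaction term in limma, for the named genes Btbd35f17 (2.48), Speer4b (2.39), Btbd35f1 (2.67), Lep (-2.45), Nanp (-2.11) and Micu2 (-1.36). Each is transgenic minus other on the log2 scale, and each rests on 2 groups against 4.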

How the results depend on the processing

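For age, 0 genes passed in limma under every alternative run except the Y-linked mean as a covariate, where 1 did (Snora20, higher, named after its values were seen); without a replicate block the count was 0, with 1510 at an unadjusted p under 0.05, so the pairing of ages changed no call. Unadjusted counts ran from 23 with a 1.5-fold minimum to 3191 without IL-17C+ uninvolved skin, and leaving out a group gave 0 passing each time. For age by transgene the count was 64, and 4 with only genes above the array median on at least 6 arrays, 0 with the receptor mean as a covariate, and 7 (without WT, 6 of them among the 64) to 57 (without IL-6KO, 29 among the 64) with 1 group left out, with 24 without IL-17C+ uninvolved, 31 without IL-17C+KO involved and 23 without IL-17C+KO uninvolved skin; all of the 64 that were tested kept their sign. For age by IL-6 loss leaving out a group gave 0 to 3, and for age by lesion 0 each time. Why the counts moved was not tested. Of 3271 values of named genes under these alternatives for age, 3149 kept their sign and their side of the threshold, 121 changed sign with neither value past the threshold, 1 (Snora20) came past it and 0 reversed a call. Genes below the array median, such as Btbd35f17, Nanp and Krt13, are read near background.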
